A study of Mus musculus with 9 samples.

Results

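The collagen genes are the protein-coding genes whose GENCODE M21 symbol has the form Col, a type number, a and a chain number, and 44 of the 55536 genes in the count files met this rule. They were assigned by textbook membership to 4 classes, with 11 fibrillar, 6 basement membrane, 9 FACIT and 6 beaded filament genes, and 12 genes fell outside these classes. FACIT stands for fibril-associated collagens with interrupted triple helices. Each gene encodes 1 chain of a protein that folds as a triple helix. Fibrillar collagens form the cables that carry tension in tendon, skin and scar, FACIT collagens sit on the surface of these cables, basement membrane collagens form the sheet around every muscle fibre and vessel, and the beaded filaments of type VI collagen lie between that sheet and the surrounding connective tissue. In skeletal muscle most fibrillar collagen is made by fibroblasts and related mesenchymal cells, and its accumulation after injury is known as fibrosis.

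RNA from quadriceps muscle of C57BL/6 mice was sequenced in bulk, with 4 libraries labelled WT (wild type) and 5 labelled Il17ra-/- (a knockout of a receptor subunit for interleukin-17 cytokines). All animals received a volumetric muscle loss (VML) wound, made by removing a piece of the muscle, and the labels give an age of 6 weeks in both groups. The labels conflict on the rest: in the characteristics the material is saline and the harvest 1 week post surgery, and in the protocol the treatment is VML with PCL and the muscle was taken at 6 weeks. The series design text speaks of animals in triplicate, no label ties a library to an animal, and p-values therefore measure the spread between these libraries, which may be in part technical.

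Library depth was 31.3 to 46.4 M (mega) counts, and 43 of the 44 collagen genes passed the filter on low counts among the 16039 tested genes. The library labelled WT 2 stood apart on the first principal component over all tested genes (34.3% of the variance) and the library labelled Il17ra-/- 1 on the second (17.4%). Both libraries also held counts for the fewest genes, with 17256 in WT 2 and 18248 in Il17ra-/- 1. The others held counts for 19258 to 20945 genes. Counts of Il17ra itself were higher in the libraries labelled Il17ra-/- (75.8, 107, 85.3 and 119 CPM against 199.6, 185, 181, 284 and 191 CPM, log2 fold change 1.11, SE 0.17, edgeR adjusted p = 0.00208). These counts cover all exons, the labels do not describe the allele, and all directions below follow the labels. CPM are library-scaled counts with TMM factors, 3 counts in a library correspond to 0.0638 to 0.0983 CPM, and group values are means ± SD over 4 and 5 libraries.

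Levels differed widely between the marker lists. Means over 9 libraries ran from 596 CPM (Dpp4) to 12598 CPM (Dcn) for fibroblast markers and from 51.7 CPM (Myh7) to 1292 CPM (Acta1) for muscle fibre markers. Endothelial markers ran from 0.589 CPM (Emcn) to 294 CPM (Tek), and the highest leukocyte marker, Cd68, was at 9.40 CPM. The collagen levels and shares below are those of RNA of this make-up, which may not be that of whole muscle. Several marker lists moved with the labels. All 8 skeletal muscle fibre markers were detected in all libraries, with a summed level of 918 to 2256 CPM in the libraries labelled WT and 2681 to 3520 CPM in those labelled Il17ra-/-. The sums of the 6 pericyte and smooth muscle markers (1333 to 1582 against 1993 to 2630.0 CPM) and of the 4 adipocyte markers (2.06 to 6.81 against 7.90 to 28.4 CPM) were also higher without overlap. Calls by edgeR were 3 of 8 muscle fibre, 4 of 6 pericyte and smooth muscle and 1 of 4 adipocyte markers. Over all tested genes 3.06% were called. Acta1 made up 855 and 1642 CPM of mean muscle fibre sums of 1640 and 3100 CPM. Lower without overlap were the sums of the 6 fibroblast markers (23551 to 24748 against 19532 to 23112 CPM) and of the 8 leukocyte markers (11.7 to 26.1 against 3.47 to 5.71 CPM). Among the fibroblast markers edgeR called only Pi16 (log2 fold change -0.55, adjusted p = 0.0207). Dpt was also lower without overlap (-0.39, edgeR adjusted p = 0.0933). Dcn, Lum and Dpp4 (-0.12, -0.13 and -0.032) and Pdgfra (0.23) overlapped between the groups. The lower leukocyte sum was that of Cd68, a macrophage marker also found in other cells (log2 fold change -2.80, edgeR adjusted p = 0.000217). The other 3 tested leukocyte markers had fold changes above 0 and were not called (log2 fold changes of 1.20 for Ptprc, 0.93 for Adgre1 and 0.75 for Csf1r). Cd68 had 51 to 884 counts in a library, Csf1r at most 77, Adgre1 at most 27, Ptprc at most 17, and the 4 untested markers were lower still. The sums of the endothelial, Schwann cell and tendon lists overlapped between the groups, and none of their genes was called by edgeR, while 5 of 6, 4 of 5 and 6 of 6 had fold changes below 0. In bulk RNA, fewer cells of a type and less RNA per cell cannot be told apart, and the part of these shifts in the collagen values was not tested.

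No collagen gene passed the threshold between the labelled genotypes. With edgeR's quasi-likelihood test and Benjamini-Hochberg adjustment over all 16039 genes, 0 of 43 were called at an adjusted p under 0.05, where 3.06% of all tested genes were (491 genes, of which 217, or 1.35%, higher and 274, or 1.71%, lower with the label Il17ra-/-). Scaling by library totals alone turned that split to 330 higher and 232 lower. An unadjusted p under 0.05 was reached by 4 of 43 collagen genes, against 16.4% of all tested genes. DESeq2 and limma voom also called 0 collagen genes, each with 4 at an unadjusted p under 0.05. In 0 of 43 collagen genes did the groups fail to overlap, against 9.18% of all tested genes. The fold changes were above 0 for 27 and below 0 for 16 collagen genes, with a median log2 fold change of 0.053, beside a median of -0.00273 and 49.7% above 0 over all tested genes.

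The precision of these differences varied with the level of the gene. The 95% interval lay within 1.5-fold in either direction for 17 of the 43 genes and within 2-fold for 29. Of the 11 fibrillar genes 9 had an interval within 2-fold, as did 4 of 6 basement membrane, 5 of 9 FACIT and 4 of 6 beaded filament genes. For the other 14 genes a 2-fold difference lay inside the interval.

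**Figure D1:**
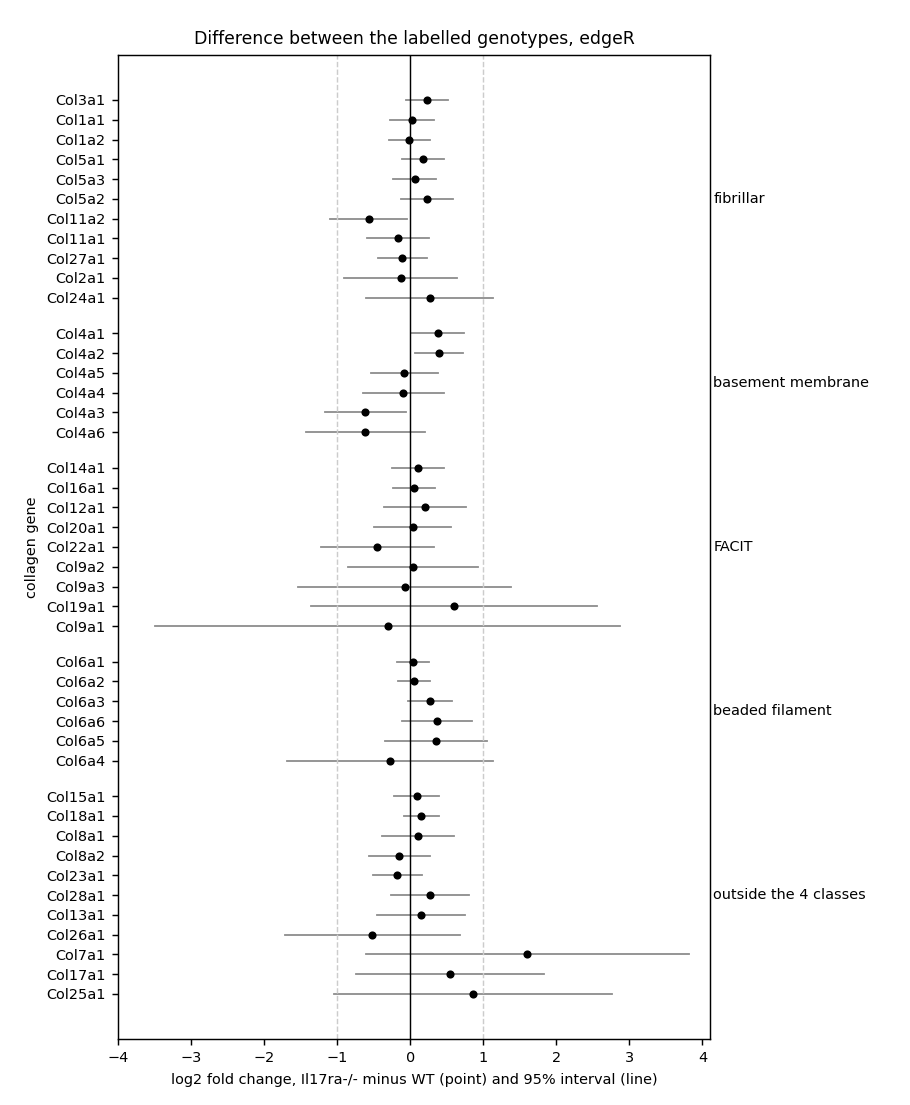
Log2 fold change (libraries labelled Il17ra-/- minus libraries labelled WT, horizontal axis) of the 43 tested collagen genes, in their classes and ordered by level, with 95% intervals from the edgeR fit as lines and 2-fold differences as dashed lines. The intervals of the abundant fibrillar and beaded filament genes are narrow around 0. Those of Col9a1, near the detection limit, and of Col7a1, high in the library labelled Il17ra-/- 5 alone, span more than 4 log2 units.

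Collagen counts made up 5.56 ± 0.58% of all counts in the libraries labelled WT and 6.35 ± 0.78% in those labelled Il17ra-/-. By library these shares were 6.32%, 4.95%, 5.62% and 5.36% against 7.29%, 6.12%, 6.20%, 5.27% and 6.87%, so that the groups overlapped. These shares are of counts without TMM factors. The difference of the mean log2 collagen sum was 0.19 with library totals and 0.12 with TMM factors. The mix of classes was nearly the same in both groups. Fibrillar genes held 70.4 ± 1.66% of collagen CPM with the label WT and 69.6 ± 2.08% with the label Il17ra-/-, beaded filament genes 16.3 ± 0.63% and 16.3 ± 1.22%, basement membrane genes 5.54 ± 0.75% and 6.58 ± 1.17%, FACIT genes 5.03 ± 0.81% and 4.94 ± 0.52%, and the other genes 2.67 ± 0.24% and 2.61 ± 0.17%. In all 5 shares the groups overlapped, and these sums were described without a test.

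Single libraries held many of the extreme values of the collagen genes. The library labelled WT 2 was the lowest of all 9 for 19 of the 43 tested genes and for 12 of the 19 with a mean of at least 100 CPM. The library labelled Il17ra-/- 1 was the highest of all 9 for 18 of 43 and for 12 of the 19 abundant genes. Without these 2 libraries together the median log2 fold change of the collagen genes was -0.050, with 18 above and 25 below 0, and 2 collagen genes were called, both basement membrane genes described below. Leaving out a library low with the label WT and another high with the label Il17ra-/- lowers the fold changes of such genes by construction. No direction is read from this alternative, here or in the classes below.

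**Figure D2:**
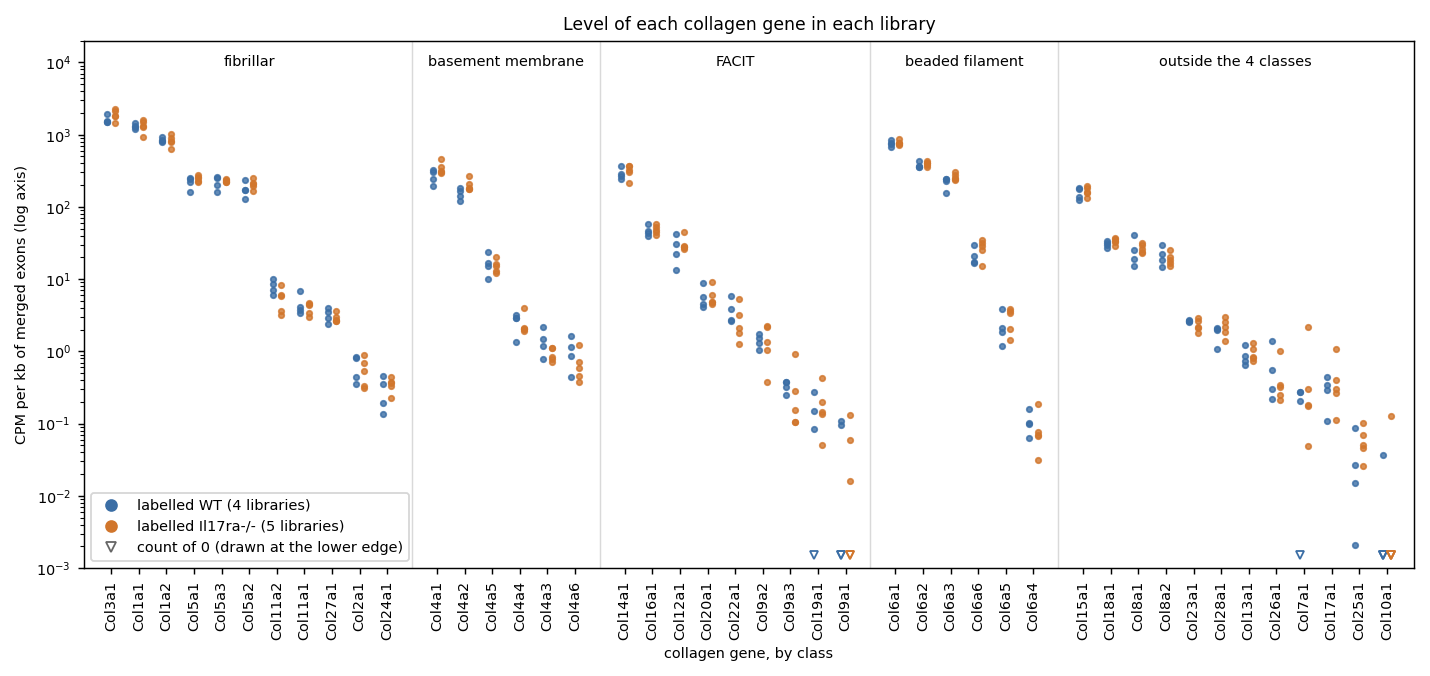
Level of all 44 collagen genes in each of the 9 libraries, as CPM per kilobase of merged exons on a log axis, by class and ordered by mean level. Col3a1, Col1a1 and Col1a2 lead, the levels span about 5 orders of magnitude, and the groups overlap for every tested gene.

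Among the fibrillar genes, which form the tension-bearing cables, Col3a1, Col1a1 and Col1a2 were the 3 most abundant collagen genes. Per kilobase of merged exons, their mean levels over 9 libraries were 1771, 1324 and 839 CPM. Per kilobase of the transcript with the longest coding sequence, an alternative chosen after seeing the data because merged exons include retained introns, the means were 3124, 1466 and 1949 CPM, so that Col1a2 then stood above Col1a1. RefSeq promoter windows (GRCm38.p6, 250 bases before to 50 after the annotated start) are shown for Col3a1 (chr1:45311288-45311587, plus strand) and Col1a2 (chr6:4505368-4505667, plus strand), as abundant genes whose windows differ in base composition. Capitals mark matches, on either strand, to the CAAT box (CCAAT), the TATA box (TATAAA) and the core of the GC box (GGGCGG), and no matches overlap here.
Col3a1: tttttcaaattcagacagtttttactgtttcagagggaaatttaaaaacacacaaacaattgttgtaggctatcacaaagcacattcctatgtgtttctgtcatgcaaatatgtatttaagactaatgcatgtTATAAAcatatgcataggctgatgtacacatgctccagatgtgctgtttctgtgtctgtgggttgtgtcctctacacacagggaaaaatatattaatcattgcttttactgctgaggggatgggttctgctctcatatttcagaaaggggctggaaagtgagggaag
Col1a2: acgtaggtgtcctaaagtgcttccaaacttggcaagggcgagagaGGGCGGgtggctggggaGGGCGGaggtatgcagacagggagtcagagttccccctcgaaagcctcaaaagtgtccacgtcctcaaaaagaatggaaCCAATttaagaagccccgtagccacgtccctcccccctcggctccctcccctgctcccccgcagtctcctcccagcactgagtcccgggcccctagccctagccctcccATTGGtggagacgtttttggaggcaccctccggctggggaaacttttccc
The Col3a1 window was 37.7% G and C and held 1 match to the TATA box, which begins 117 bases before the listed start. The Col1a2 window was 61.0% G and C and held 2 matches to the CAAT box and 2 to the GC box. Those to the CAAT box begin 109 bases before the listed start and at the start itself. Of the 44 collagen genes, 35 matched RefSeq windows by symbol, with 38 windows in all. A match to the GC box was present in 60.5% of these windows against 35.7% of all 32851 windows, to the CAAT box in 34.2% against 37.4%, and to the TATA box in 13.2% against 13.6%. The median G and C content was 59.8% in the collagen windows and 52.7% in all windows. A match describes the letters of the window and not the binding of a factor.

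Col1a1 (ENSMUSG00000001506.10, chr11:94936224-94953042, plus strand) and Col1a2 (ENSMUSG00000029661.16, chr6:4504814-4541544, plus strand) encode the chains of type I collagen, the main fibril of scar and tendon. Col1a1 stood at 9465, 8502, 8556 and 7924 CPM in the libraries labelled WT and 10553, 8715, 8319, 6192 and 9997 CPM in those labelled Il17ra-/-. Its means of 8612 ± 637 and 8755 ± 1698 CPM gave a log2 fold change of 0.024 (SE 0.14, 95% interval -0.28 to 0.33, adjusted p = 0.953), and the interval corresponds to 0.825 to 1.25-fold. The libraries labelled Il17ra-/- held both the highest and the lowest value (replicates 1 and 4). Col1a2 stood at 11658, 9734, 10361 and 10141 CPM in the libraries labelled WT and 12730.3, 10302, 9706, 7889.9 and 11264 CPM in those labelled Il17ra-/-. For Col1a2 the log2 fold change was -0.013 (SE 0.13, 95% interval -0.29 to 0.27, adjusted p = 0.975), an interval of 0.816 to 1.20-fold, again with both extremes among the libraries labelled Il17ra-/-. The sign of the Col1a2 difference turned with library totals as the scaling (0.047).

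Col3a1 (ENSMUSG00000026043.18, chr1:45311538-45349706, plus strand) encodes the chain of type III collagen, which assembles into mixed fibrils with type I and is prominent in early granulation tissue. Col3a1 stood at 18796, 14749, 14911 and 14993 CPM in the libraries labelled WT and 22208, 18062, 17941, 14195 and 20605 CPM in those labelled Il17ra-/-. The library labelled WT 1 was above the other 3 with that label, and replicates 1 and 5 with the label Il17ra-/- were the highest of the 9. The log2 fold change was 0.23 (SE 0.13, 95% interval -0.057 to 0.52, adjusted p = 0.419), an interval of 0.961 to 1.43-fold. Its exons share 141 bases with Gm47302 on the same strand (1.44% of its exon length), where reads could not be assigned to either gene.

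Col5a1 and Col5a2 encode chains of type V collagen, which starts fibrils and limits their diameter. Col5a1 (chr2:27886425-28039514, plus strand) stood at 2123, 1366, 1905 and 2070.2 CPM in the libraries labelled WT and 2344, 1906, 2107, 1921 and 2228 CPM in those labelled Il17ra-/-, with a log2 fold change of 0.17 (SE 0.13, 95% interval -0.12 to 0.46, adjusted p = 0.570). Col5a2 (chr1:45374321-45503282, minus strand), which lies tail to tail with Col3a1 at a distance of 24614 bases, stood at 2254, 1217, 1629 and 1635 CPM in the libraries labelled WT and 2429, 2059.6, 1845, 1570.2 and 1978 CPM in those labelled Il17ra-/-, with a log2 fold change of 0.23 (SE 0.17, 95% interval -0.13 to 0.59, adjusted p = 0.532). In both genes the library labelled WT 2 was the lowest and the library labelled Il17ra-/- 1 the highest of the 9. Without both libraries the log2 fold changes were 0.0068 and 0.020.

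Col11a2 (chr17:34039437-34066685, plus strand) encodes a chain of type XI collagen, a minor fibrillar collagen best known from cartilage, and had the smallest p of its class. It stood at 48.0, 70.0, 58.9 and 42.0 CPM in the libraries labelled WT and 41.5, 22.0, 39.6, 24.5 and 56.3 CPM in those labelled Il17ra-/-. The 2 lowest values were replicates 2 and 4 with the label Il17ra-/- and the highest was WT 2, and the groups overlapped. The log2 fold change was -0.57 (SE 0.24, 95% interval -1.10 to -0.048, adjusted p = 0.257), with an unadjusted p of 0.0347 in the edgeR test. The sum of the 6 tendon and cartilage markers overlapped between the groups (365 to 680.2 against 374 to 565 CPM), and most of it came from Comp and Tnmd. By gene, all 6 markers had log2 fold changes below 0, with a median of -0.26 and 0 called. An unadjusted edgeR p under 0.05 was reached by 2, beside 16.4% of all tested genes. These were the transcription factors Sox9, without overlap (-0.61, adjusted p = 0.102 by edgeR), and Scx (-0.63, adjusted p = 0.223), and their part in the Col11a2 value was not tested. The remaining fibrillar genes (Col2a1, Col5a3, Col11a1, Col24a1 and Col27a1) had log2 fold changes from -0.17 (Col11a1) to 0.26 (Col24a1). Col2a1, the main collagen of cartilage, was at 5.62 ± 2.25 and 5.11 ± 2.32 CPM. Over the 11 fibrillar genes 6 fold changes were above and 5 below 0, with a median of 0.024. The sign of this median turned without WT 2 and Il17ra-/- 1 together (-0.063, 4 above and 7 below 0), with the replicate block (-0.044) and without WT 4, Il17ra-/- 1 or Il17ra-/- 5 (-0.0093, -0.051 and -0.022). The fibroblast marker sum was lower without overlap in the libraries labelled Il17ra-/-, though only 1 of its 6 genes, Pi16, was called. No fibrillar gene was called in either direction.

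**Figure D3:**
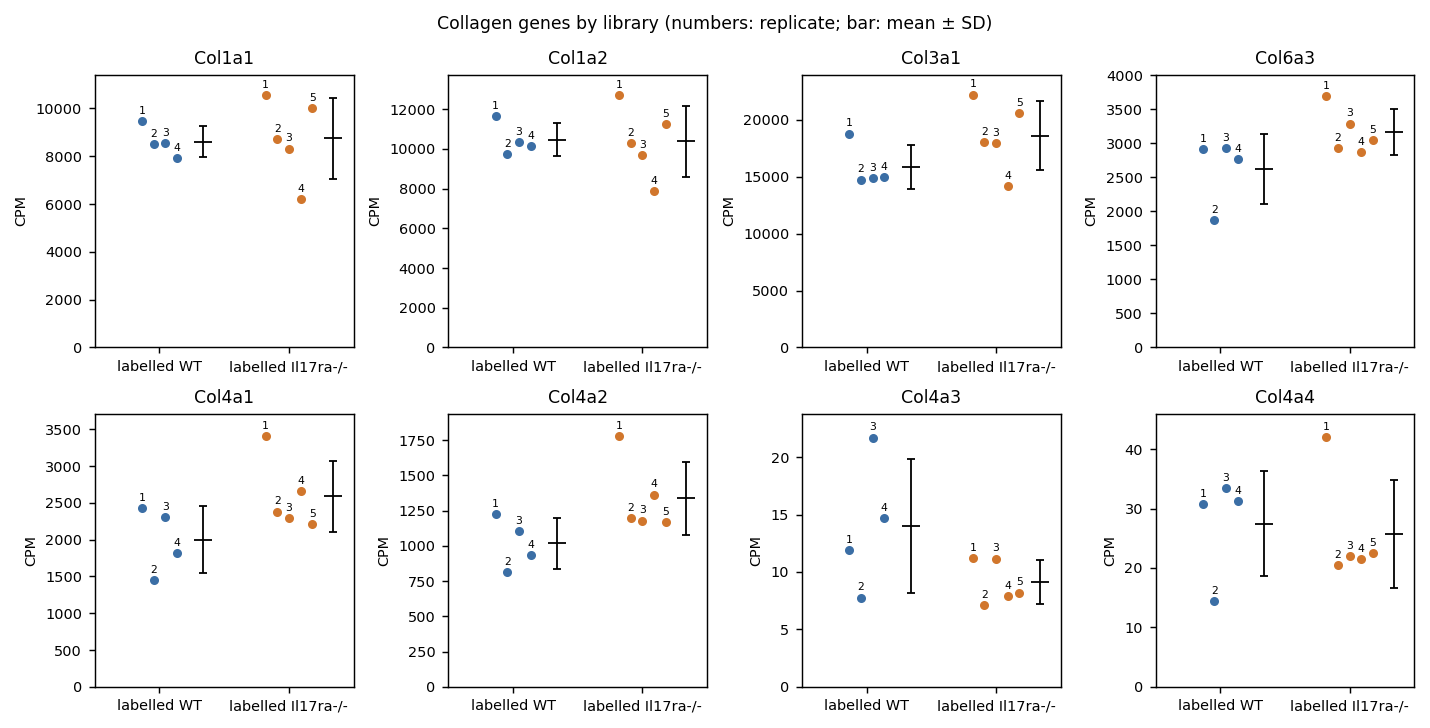
CPM of 8 collagen genes in each library (points, numbered by replicate, with mean ± SD beside them), for the 4 libraries labelled WT and the 5 labelled Il17ra-/-. Col4a1 and Col4a2 show the same order of libraries in outline, with WT 2 lowest and Il17ra-/- 1 highest, and in Col4a4 these 2 libraries hold the extremes of their groups.

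The basement membrane genes encode the chains of type IV collagen, which are arranged in head-to-head pairs: Col4a1 with Col4a2, Col4a4 with Col4a3, and Col4a6 with Col4a5. They held 3 of the 4 smallest p-values among collagen genes, and they differed in direction, with 2 fold changes above and 4 below 0 and a median log2 fold change of -0.091. Their summed level was 3181 ± 667 CPM with the label WT and 4073 ± 765 CPM with the label Il17ra-/-, with overlap. Most of this sum came from Col4a1 and Col4a2, and it was described without a test. The chains of Col4a1 and Col4a2 form the network found in nearly all basement membranes. Their starts lie so close that the RefSeq windows of Col4a1 (chr8:11312777-11313076, minus strand, GRCm38.p6) and Col4a2 (chr8:11312555-11312854, plus strand) share 78 bases (chr8:11312777-11312854). The windows are shown because these 2 genes had nearly equal fold changes, each 5′ to 3′ on its own strand, with the shared stretch in capitals.
Col4a1: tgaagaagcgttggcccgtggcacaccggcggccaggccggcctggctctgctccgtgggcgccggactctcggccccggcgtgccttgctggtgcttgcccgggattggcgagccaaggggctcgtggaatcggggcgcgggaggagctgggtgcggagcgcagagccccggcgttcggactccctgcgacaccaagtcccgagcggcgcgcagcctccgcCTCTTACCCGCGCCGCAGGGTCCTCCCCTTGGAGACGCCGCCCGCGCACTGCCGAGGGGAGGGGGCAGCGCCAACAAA
Col4a2: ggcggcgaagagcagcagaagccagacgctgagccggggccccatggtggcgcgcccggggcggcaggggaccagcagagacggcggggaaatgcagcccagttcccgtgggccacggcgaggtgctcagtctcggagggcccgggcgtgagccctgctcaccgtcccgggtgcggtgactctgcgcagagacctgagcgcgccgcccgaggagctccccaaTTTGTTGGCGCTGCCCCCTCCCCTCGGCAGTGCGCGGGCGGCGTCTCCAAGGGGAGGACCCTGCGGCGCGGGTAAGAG
In capitals each sequence is the reverse complement of the other. The Col4a1 window was 74.0% G and C with 1 match to the CAAT box and 1 to the GC box. The Col4a2 window was 73.7% G and C with 1 match to the CAAT box and 3 to the GC box. Neither held a match to the TATA box. In the other head-to-head pairs the log2 fold change was -0.62 for Col4a3 and -0.098 for Col4a4. It was -0.62 for Col4a6 and -0.085 for Col4a5. Whether the shared stretch plays a part in the fold changes of Col4a1 and Col4a2 was not tested.

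Col4a1 (ENSMUSG00000031502.11, chr8:11198423-11312826, minus strand) stood at 2429, 1455, 2305 and 1822 CPM in the libraries labelled WT and 3405, 2382, 2299, 2658 and 2214 CPM in those labelled Il17ra-/-. Its log2 fold change was 0.37 (SE 0.17, 95% interval 0.014 to 0.73, adjusted p = 0.284), with an unadjusted p of 0.0428 in the edgeR test. Col4a2 (ENSMUSG00000031503.13, chr8:11312805-11449287, plus strand) stood at 1222, 812, 1105 and 933 CPM in the libraries labelled WT and 1778, 1195, 1179, 1363 and 1170.2 CPM in those labelled Il17ra-/-. Its log2 fold change was 0.39 (SE 0.15, 95% interval 0.061 to 0.73, adjusted p = 0.219), with an unadjusted p of 0.0237. In both genes the libraries labelled WT 2 and WT 4 were the 2 lowest and Il17ra-/- 1 was the highest, while WT 1 lay among the libraries labelled Il17ra-/- in both genes and WT 3 in Col4a1 only. Neither gene was called under any of the 19 alternatives, in all of which both fold changes were above 0. Without WT 2 the log2 fold changes were 0.25 and 0.30, and without WT 2 and Il17ra-/- 1 together 0.13 and 0.18. The pericyte and smooth muscle markers, cells that lie against the vascular basement membrane, were higher with the label Il17ra-/- in sum. Of these 6 markers 4 were called, beside 3.06% of all tested genes. The endothelial sum was 349 ± 86.8 and 343 ± 28.5 CPM, and most of it came from Tek (295 and 294 CPM). Of its 6 genes 5 had fold changes below 0 and none was called, with a median log2 fold change of -0.15. The part of either list in the Col4a1 and Col4a2 values was not tested. The exons of the pair overlap by 22 bases on opposite strands, and counting was without strand.

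The chains of Col4a3, Col4a4 and Col4a5 form a second network that is best known from kidney and lung. Col4a3 (chr1:82586921-82722059, plus strand) stood at 11.9, 7.77, 21.7 and 14.7 CPM in the libraries labelled WT and 11.2, 7.14, 11.2, 7.88 and 8.20 CPM in those labelled Il17ra-/-. The highest 2 values were WT 3 and WT 4, and WT 2 lay among the lowest, so that the groups overlapped. The log2 fold change was -0.62 (SE 0.26, 95% interval -1.17 to -0.066, adjusted p = 0.245), with an unadjusted p of 0.0309 in the edgeR test. Col4a3 is a low gene (237 to 777 counts), and 5.65% of its exon length overlaps C430014B12Rik on the other strand, whose level was 1.03 ± 1.10 and 0.429 ± 0.343 CPM. Col4a4, its head-to-head neighbour at 71 bases, was chosen for description after its values were seen. It stood at 30.7, 14.4, 33.5 and 31.3 CPM in the libraries labelled WT and 42.0, 20.5, 22.0, 21.5 and 22.5 CPM in those labelled Il17ra-/-, with a log2 fold change of -0.098 (SE 0.26, 95% interval -0.65 to 0.46, adjusted p = 0.889). Apart from WT 2 and Il17ra-/- 1, its values were 30.7 to 33.5 CPM with the label WT and 20.5 to 22.5 CPM with the label Il17ra-/-.

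Leaving out WT 2 and Il17ra-/- 1 together changed the calls of this class. In Col4a3 and Col4a4 WT 2 was the lowest library with its label and Il17ra-/- 1 the highest with its own. This choice therefore moved both fold changes down by construction. Col4a3 was then called lower with the label Il17ra-/- (log2 fold change -0.90, edgeR adjusted p = 0.0423), as was Col4a4 (-0.56, adjusted p = 0.0102), and the class median was -0.47. Without WT 3 alone the class median was instead 0.085, with 4 fold changes above and 2 below 0. Over all 19 alternatives Col4a3 and Col4a4 were called in this 1 only, and Col4a3 reached an adjusted p of 0.0552 without WT 2 alone. Col4a5 (chrX:141475385-141689234, plus strand), whose chain takes part in both the Col4a3 and the Col4a6 network, stood at 101, 67.0, 159 and 112 CPM in the libraries labelled WT and 138, 87.1, 110.2, 80.8 and 102 CPM in those labelled Il17ra-/-, with a log2 fold change of -0.085 (SE 0.21, 95% interval -0.54 to 0.37, adjusted p = 0.884). Its lowest and its highest value were both labelled WT. Col4a6, its neighbour at 1308 bases and a chain of smooth muscle basement membranes, was at 8.21 ± 4.01 and 5.36 ± 2.63 CPM, with a log2 fold change of -0.62 (SE 0.38, 95% interval -1.43 to 0.20, adjusted p = 0.450).

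Among the beaded filament genes, Col6a1, Col6a2 and Col6a3 encode the chains of type VI collagen, which surrounds muscle fibres and is mutated in congenital muscular dystrophies. Col6a1 (chr10:76708792-76726168, minus strand) stood at 3644, 2932, 3265 and 3374 CPM in the libraries labelled WT and 3784, 3286, 3371, 3118 and 3384 CPM in those labelled Il17ra-/-, with a log2 fold change of 0.037 (SE 0.10, 95% interval -0.18 to 0.26, adjusted p = 0.895), an interval of 0.881 to 1.19-fold. Col6a2 (chr10:76595762-76623630, minus strand) stood at 3597, 2993, 3039 and 3015 CPM in the libraries labelled WT and 3624, 3169.8, 3333, 2935 and 3328 CPM in those labelled Il17ra-/-, with a log2 fold change of 0.053 (SE 0.10, 95% interval -0.17 to 0.27, adjusted p = 0.846), an interval of 0.889 to 1.21-fold. These 2 intervals were among the narrowest of all collagen genes, and both genes varied little between libraries. Col6a3 (chr1:90765923-90843971, minus strand), the longest of these chains, stood at 2914, 1865, 2933 and 2767 CPM in the libraries labelled WT and 3690.5, 2927, 3286, 2868 and 3049.7 CPM in those labelled Il17ra-/-, with a log2 fold change of 0.27 (SE 0.14, 95% interval -0.029 to 0.57, adjusted p = 0.356). The library labelled WT 2 was well below the other 8, and without it the log2 fold change was 0.14.

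Col6a4, Col6a5 and Col6a6 encode chains that are related to that of Col6a3 and lie in tandem on chromosome 9. Their mean levels fell off along the cluster, at 24.7, 2.60 and 0.0955 CPM per kilobase of merged exons for Col6a6, Col6a5 and Col6a4. Col6a6 (chr9:105687809-105828160, minus strand) stood at 158, 156, 273 and 194 CPM in the libraries labelled WT and 263, 233, 324, 141 and 294 CPM in those labelled Il17ra-/-, with a log2 fold change of 0.37 (SE 0.22, 95% interval -0.11 to 0.84, adjusted p = 0.442). The groups overlapped widely, since the lowest value was labelled Il17ra-/- and WT 3 was the third highest of 9. Col6a5 had a log2 fold change of 0.35 and Col6a4, at 10 to 68 counts, of -0.28. Over the 6 genes of the class 5 fold changes were above 0, with a median log2 fold change of 0.16. Without WT 2 and Il17ra-/- 1 together the class had 3 above and 3 below 0 and a median of 0.035.

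Among the FACIT genes, which decorate fibrils, Col14a1, Col16a1 and Col12a1 were the most abundant, at 306, 47.8 and 29.2 CPM per kilobase of merged exons. Col12a1 (chr9:79598991-79718831, minus strand) and Col14a1 (chr15:55307750-55520803, plus strand) encode chains that bind type I collagen fibrils. Col14a1 stood at 1685, 1894, 2033 and 2605 CPM in the libraries labelled WT and 2104, 2253, 2596, 1519.6 and 2606 CPM in those labelled Il17ra-/-, with a log2 fold change of 0.11 (SE 0.17, 95% interval -0.25 to 0.47, adjusted p = 0.792). Col12a1 stood at 634, 207, 334 and 473 CPM in the libraries labelled WT and 678, 392, 439.6, 422 and 428 CPM in those labelled Il17ra-/-, with a log2 fold change of 0.20 (SE 0.26, 95% interval -0.37 to 0.76, adjusted p = 0.761). Among the libraries labelled WT, Col12a1 spanned about 3-fold, from WT 2 to WT 1, and 4 of the 5 libraries labelled Il17ra-/- lay between 392 and 440 CPM. Col16a1 stood at 392, 266, 309 and 299 CPM in the libraries labelled WT and 354, 323, 299, 275 and 389 CPM in those labelled Il17ra-/-, with a log2 fold change of 0.052 (SE 0.14, 95% interval -0.24 to 0.34, adjusted p = 0.887). Col12a1 and Col16a1 turned below 0 without WT 2 (-0.023 and -0.020).

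Col22a1 (chr15:71795795-72034227, minus strand) encodes a FACIT chain of the myotendinous junction, where muscle fibres attach to tendon. It stood at 53.5, 35.2, 25.1 and 24.1 CPM in the libraries labelled WT and 19.4, 11.5, 29.5, 16.3 and 49.3 CPM in those labelled Il17ra-/-, with a log2 fold change of -0.45 (SE 0.36, 95% interval -1.23 to 0.32, adjusted p = 0.577), and was below 0 in all 19 alternatives. The highest 2 values were WT 1 and Il17ra-/- 5, and the summed muscle fibre markers were higher with the label Il17ra-/- without overlap. The other FACIT genes were low. Col9a1, Col9a2 and Col9a3, whose chains coat cartilage fibrils, reached at most 286 counts in a library, and Col19a1 at most 117. Col20a1, at 29.6 ± 10.8 and 30.2 ± 9.998 CPM, had a log2 fold change of 0.031. Over the 9 FACIT genes 6 fold changes were above and 3 below 0, with a median of 0.041. Without WT 2 and Il17ra-/- 1 together 3 were above and 6 below 0, with a median of -0.050, and without WT 2 alone the median was -0.0027.

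Ratios of chains within a library do not depend on depth or on the scaling factor. The ratio of Col1a1 to Col1a2, per kilobase of merged exons, was 1.56 ± 0.07 with the label WT and 1.59 ± 0.07 with the label Il17ra-/-. The ratio of Col4a1 to Col4a2 was 1.73 ± 0.11 and 1.72 ± 0.03, and that of Col6a1 to Col6a2 was 1.99 ± 0.12 and 1.97 ± 0.04. The log2 ratio of these 3 pairs varied less between libraries than the level of either gene. For Col4a1 and Col4a2 the SD within the groups was 0.29 and 0.26 on the log2 scale, and that of their log2 ratio was 0.063. For Col1a1 and Col1a2 these values were 0.24, 0.21 and 0.066, and for Col6a1 and Col6a2 0.12, 0.12 and 0.060, where both genes of a pair share the library and its depth. The ratio of Col5a1 to Col5a2 varied more, with an SD of the log2 ratio of 0.18 (0.22 and 0.29 for the genes) and group means of 1.27 ± 0.15 and 1.22 ± 0.14. For Col6a3 to Col6a1, also chains of 1 trimer, the SD of the log2 ratio was 0.15, above that of Col6a1 itself (0.12). For Col3a1 to Col1a1, chains of different trimers, it was 0.078, beside 0.22 and 0.24 for the genes. By transcript length the ratios with the label WT were 0.742 for Col1a1 to Col1a2, 1.91 for Col4a1 to Col4a2, 1.01 for Col6a1 to Col6a2 and 0.887 for Col5a1 to Col5a2, so that the level of a ratio depended on the length used.

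The ratio of Col3a1 to Col1a1, per kilobase of merged exons, was 1.33, 1.16, 1.17 and 1.27 in the libraries labelled WT and 1.41, 1.39, 1.44, 1.53 and 1.38 in those labelled Il17ra-/-. All 5 libraries labelled Il17ra-/- lay above all 4 labelled WT, with means of 1.23 ± 0.08 and 1.43 ± 0.06, and the difference of the mean log2 ratio was 0.22. This was the 1 ratio of the 6 in which the groups did not overlap, and ratios were described without a test. Among single genes the groups did not overlap in 9.18% of those tested. The same share over ratios of other gene pairs was not computed, so that how common such a separation is was not tested. Neither gene of the ratio was called by itself. The ratio of Col6a3 to Col6a1 was 0.293, 0.233, 0.329 and 0.300 in the libraries labelled WT and 0.357, 0.326, 0.357, 0.337 and 0.330 in those labelled Il17ra-/-, where WT 3 overlapped with the lowest value labelled Il17ra-/-. For this pair, chains of 1 trimer, the difference of the mean log2 ratio was 0.25. By transcript length the means were 1.96 and 2.28 for Col3a1 to Col1a1 and 0.320 and 0.378 for Col6a3 to Col6a1.

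**Figure D4:**
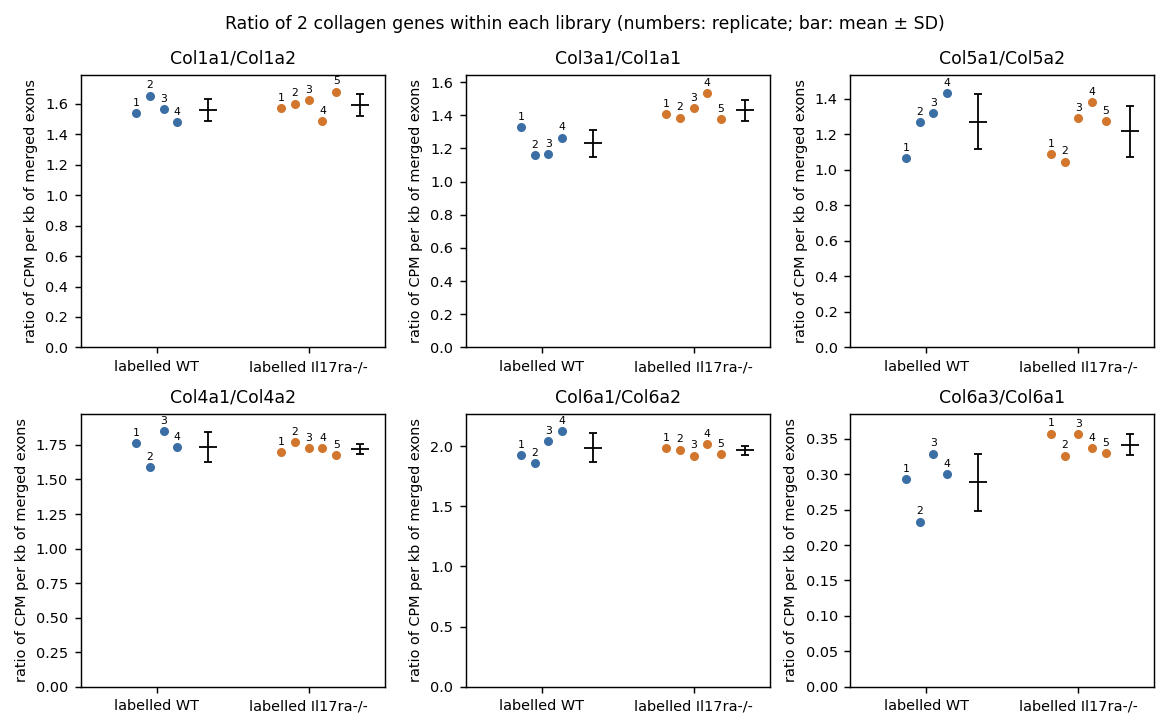
Ratio of the levels of 2 collagen genes within each library, per kilobase of merged exons (points, numbered by replicate, with mean ± SD beside them). Of the ratios of chains of 1 trimer, Col1a1/Col1a2, Col4a1/Col4a2 and Col6a1/Col6a2 are nearly equal in both groups. Col5a1/Col5a2 has means of 1.27 with the label WT and 1.22 with the label Il17ra-/-, and Col6a3/Col6a1 of 0.289 and 0.341, each with overlap. Col3a1/Col1a1, of different trimers, is higher in all 5 libraries labelled Il17ra-/- (1.38 to 1.53) than in the 4 labelled WT (1.16 to 1.33).

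Of the 12 genes outside the 4 classes, Col15a1 and Col18a1 encode multiplexins of the basement membrane zone, and the C-terminal fragment of the latter is endostatin. Col15a1 (chr4:47208161-47313167, plus strand) stood at 1122, 801, 1157 and 873 CPM in the libraries labelled WT and 1227, 984, 1152, 843 and 1035 CPM in those labelled Il17ra-/-, with a log2 fold change of 0.085 (SE 0.14, 95% interval -0.22 to 0.39, adjusted p = 0.815). Col18a1 (chr10:77052178-77166548, minus strand) stood at 237, 206, 222 and 188 CPM in the libraries labelled WT and 249.7, 231, 236, 199 and 264 CPM in those labelled Il17ra-/-, with a log2 fold change of 0.15 (SE 0.11, 95% interval -0.094 to 0.39, adjusted p = 0.560) and a sign that held in all 19 alternatives. Col8a1 and Col8a2 encode the chains of network-forming type VIII collagen, found in vessel walls and under the corneal endothelium. Col8a1 (chr16:57624258-57754737, minus strand) stood at 321, 121, 147 and 199 CPM in the libraries labelled WT and 251, 183, 232, 185 and 207 CPM in those labelled Il17ra-/-, with a log2 fold change of 0.10 (SE 0.23, 95% interval -0.39 to 0.59, adjusted p = 0.867). Col8a2 (chr4:126286793-126314330, plus strand) stood at 135, 66.0, 81.8 and 100.2 CPM in the libraries labelled WT and 112, 69.1, 91.2, 74.9 and 83.9 CPM in those labelled Il17ra-/-, with a log2 fold change of -0.15 (SE 0.19, 95% interval -0.56 to 0.26, adjusted p = 0.749). In both type VIII genes WT 1 was the highest and WT 2 the lowest of the 9 libraries, so that the spread within the label WT covered that of the other group.

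Col23a1 (chr11:51289920-51583918, plus strand), a transmembrane collagen, stood at 15.0, 15.2, 14.5 and 15.6 CPM in the libraries labelled WT and 14.9, 12.0, 12.5, 10.5 and 16.5 CPM in those labelled Il17ra-/-, with a log2 fold change of -0.18 (SE 0.15, 95% interval -0.51 to 0.15, adjusted p = 0.611). Its values with the label WT lay within 14.5 and 15.6 CPM, and 3 of the 5 libraries labelled Il17ra-/- were below them. Col28a1 (chr6:7997808-8192617, minus strand), a collagen of peripheral nerve, stood at 10.4, 5.24, 10.03 and 9.78 CPM in the libraries labelled WT and 14.6, 6.80, 10.5, 12.5 and 9.05 CPM in those labelled Il17ra-/-, with a log2 fold change of 0.27 (SE 0.25, 95% interval -0.27 to 0.81, adjusted p = 0.643). The sum of the Schwann cell markers overlapped between the groups (211 to 325 against 167 to 229 CPM), but 4 of the 5 had fold changes below 0, with a median log2 fold change of -0.37. None was called by edgeR, and 3 had an unadjusted p under 0.05, beside 16.4% of all tested genes. S100b was lower without overlap (-0.60, edgeR adjusted p = 0.125). Col13a1, a transmembrane collagen of the neuromuscular junction, was at 3.98 ± 1.19 and 4.39 ± 1.08 CPM, Col25a1 at 1 to 52 counts, Col26a1 at 62 to 352 counts, and Col10a1, the collagen of hypertrophic cartilage and the 1 untested gene, at 0 to 19 counts.

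Col7a1 (chr9:108953586-108984875, plus strand) encodes the chain of the anchoring fibrils that fasten the epidermis to the dermis, and its value was set by 1 library. It stood at 2.79, 0, 2.85 and 2.12 CPM in the libraries labelled WT and 0.508, 1.87, 1.79, 3.06 and 22.4 CPM in those labelled Il17ra-/-. The library labelled Il17ra-/- 5 held 950 counts, and no other library held more than 113. The log2 fold change was 1.603 (SE 1.03, 95% interval -0.61 to 3.81, adjusted p = 0.473), and without that library it was -0.10. A list of 8 keratinocyte genes was added after the values of Col7a1 were seen. Of these, Krt5, Krt14, Krt15 and Dsp were highest in the same library. Krt5 stood at 0.630, 0, 0 and 1.49 CPM in the libraries labelled WT and 0, 0, 0, 0 and 9.55 CPM in those labelled Il17ra-/-, and Krt14 at 0.246, 0, 0 and 1.18 CPM in the libraries labelled WT and 0, 0, 0, 0 and 9.17 CPM in those labelled Il17ra-/-. In that library Krt15 was at 4.95 CPM and Dsp at 7.78 CPM, while Krt1 and Dsg3 had 0 counts. Krt10 (5.56 CPM) and Itgb4 (36.4 CPM) lay there within the range of the other libraries. Over the 8 genes of the list the sum was 31.6 to 43.7 CPM with the label WT and 33.8 to 73.4 CPM with the label Il17ra-/-, of which Itgb4 and Krt10, detected in all libraries, made up most elsewhere. Col17a1, a transmembrane collagen of hemidesmosomes, was likewise highest there (279 counts), with a log2 fold change of 0.55, and of -0.14 without that library.

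**Figure D5:**
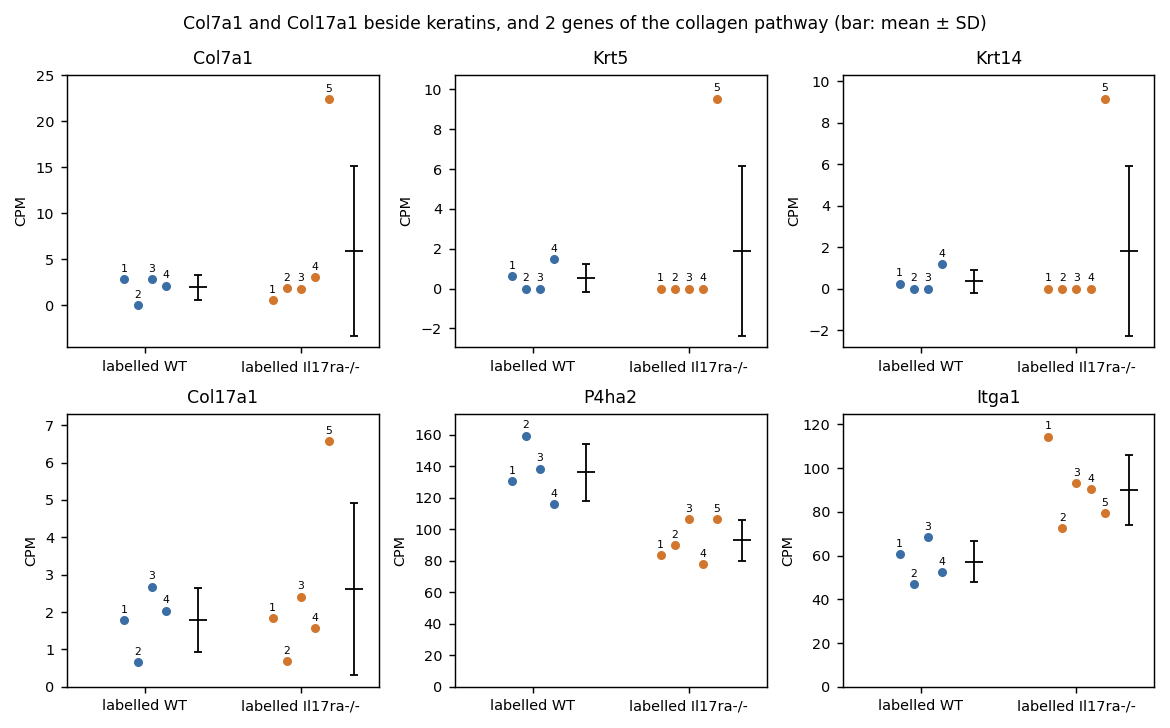
CPM in each library (points, numbered by replicate, with mean ± SD beside them) of Col7a1, Krt5, Krt14 and Col17a1, and of P4ha2 and Itga1 from the collagen pathway. The library labelled Il17ra-/- 5 alone is high for the first 4 genes (22.4 CPM for Col7a1), whereas for P4ha2 and Itga1 the 2 groups are separate.

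The genes that make, bind and degrade collagen were described from a list of 60, of which 54 were tested. Of these 2 were called, 1 in each direction, or 3.70% against 3.06% of all tested genes. The fold changes were above 0 for 21 and below 0 for 33, with a median log2 fold change of -0.074.

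Hydroxylation of proline and lysine in the endoplasmic reticulum makes the triple helix stable and ready for cross-links. P4ha2, a catalytic subunit of prolyl 4-hydroxylase, fell with the label Il17ra-/-, from 131, 159.5, 139 and 116 CPM to 83.7, 90.1, 107, 78.1 and 107 CPM without overlap (log2 fold change -0.55 (SE 0.13, 95% interval -0.82 to -0.27, adjusted p = 0.0327)). P4ha1, the paralogous subunit, stood at 251, 230.5, 257 and 239.8 CPM in the libraries labelled WT and 217, 197, 231, 182 and 209 CPM in those labelled Il17ra-/-, with a log2 fold change of -0.24 (SE 0.10, 95% interval -0.46 to -0.024, adjusted p = 0.249). Of the 15 genes in this list 1 was called and 10 had fold changes below 0, with a median of -0.13. None of the 11 chaperone and secretion genes was called by edgeR, DESeq2 or limma voom, and 0 had an unadjusted edgeR p under 0.05. There, Sparc, a collagen-binding matrix glycoprotein, had a log2 fold change of -0.29 (SE 0.15, 95% interval -0.60 to 0.029, adjusted p = 0.353) and Sec23a, a coat subunit of the vesicles that export procollagen, of 0.16 (SE 0.099, 95% interval -0.056 to 0.37, adjusted p = 0.466).

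Procollagen is trimmed outside the cell before it joins a fibril. Bmp1, the protease that removes the C-propeptide, stood at 834, 756, 884 and 774 CPM in the libraries labelled WT and 581, 677, 672, 560.1 and 738 CPM in those labelled Il17ra-/-, without overlap and with a log2 fold change of -0.33 (SE 0.11, 95% interval -0.57 to -0.095, adjusted p = 0.142). DESeq2 called Bmp1 lower (adjusted p = 0.0341). Pcolce2, which enhances that cleavage, stood at 523, 774, 663 and 696 CPM in the libraries labelled WT and 529, 569, 535, 468 and 506 CPM in those labelled Il17ra-/-, with a log2 fold change of -0.35 (SE 0.12, 95% interval -0.61 to -0.091, adjusted p = 0.156). Among the 8 tested processing genes 0 were called by edgeR and 7 had fold changes below 0. An unadjusted p under 0.05 was reached by 3, beside 16.4% of all tested genes. The third of these 3, Adamts3, a procollagen N-proteinase chosen for mention after its value was seen, was the 1 gene above 0 (log2 fold change 0.70, adjusted p = 0.239). Of the cross-linking enzymes, 0 of 6 were called and 0 had an unadjusted edgeR p under 0.05. Lox, a lysyl oxidase, had a log2 fold change of 0.35 (SE 0.18, 95% interval -0.039 to 0.74, adjusted p = 0.359) and Tgm2, a transglutaminase, of -0.35 (SE 0.17, 95% interval -0.73 to 0.022, adjusted p = 0.336).

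Among collagen receptors Itga1, the integrin chain that with Itgb1 binds type IV and other collagens, rose with the label Il17ra-/-. It went from 60.7, 47.0, 68.5 and 52.4 CPM to 114, 72.4, 93.2, 90.5 and 79.5 CPM without overlap (log2 fold change 0.65 (SE 0.15, 95% interval 0.34 to 0.97, adjusted p = 0.0284)). Itga1 was the 1 called gene of 9 tested receptors, beside 3.06% of all tested genes called. Of the 9 receptors 7 had fold changes above 0. Ddr1, a receptor tyrosine kinase for collagen, had a log2 fold change of 0.22 (SE 0.12, 95% interval -0.051 to 0.48, adjusted p = 0.415). Itga1 is expressed on smooth muscle and pericytes, whose marker sum was also higher without overlap, and the part of that shift in the value was not tested. For degradation, Mmp2, a gelatinase, was lower without overlap (2688 ± 74.1 against 2329 ± 259.8 CPM) at a log2 fold change of -0.21 (SE 0.11, 95% interval -0.43 to 0.021, adjusted p = 0.353), and Ctsk, a collagen-cleaving cathepsin, had -0.30 (SE 0.15, 95% interval -0.61 to 0.018, adjusted p = 0.336). None of the 5 tested degradation genes was called by edgeR, and 0 had an unadjusted p under 0.05.

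The calls of P4ha2 and Itga1 depended on single libraries. P4ha2 was no longer called without WT 1, WT 3, Il17ra-/- 1, Il17ra-/- 2 or Il17ra-/- 4, nor with library totals as the scaling (adjusted p of 0.0603). Itga1 was no longer called without WT 1, WT 4, Il17ra-/- 1, Il17ra-/- 3 or Il17ra-/- 4. Neither was called without WT 2 and Il17ra-/- 1 together (edgeR adjusted p of 0.0776 for P4ha2 and 0.0532 for Itga1). The direction of both genes held in all 19 alternatives.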

How the data were processed

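Whole-number read counts per gene were deposited for 9 libraries. They were made by the authors with featureCounts 1.6.0 over GENCODE M21 (GRCm38) exons, for read pairs and without strand, per the file headers. Alignment was with STAR, per the submitters' processing notes, in a version not given in the sources used here. Multimapping reads were not counted, per the file headers.

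Groups followed the genotype labels. Genes were filtered with filterByExpr and compared with TMM scaling and edgeR's quasi-likelihood test (edgeR 4.0.16, R 4.3.3), two-sided, with the label as the only term, Benjamini-Hochberg adjustment over 16039 genes and a threshold of 0.05. The SE was derived from the fold change and the F statistic, and 95% intervals use the t quantile of the fit. The code was tested on simulated counts. Alternatives covered scaling, DESeq2 1.42.0, limma voom 3.58.1, low-count filters, left-out libraries and a replicate block.

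The members and the gene lists were chosen with earlier results of these data known. Named collagen genes were the 3 most abundant per length and the 2 of smallest p in each class (4 and 4 outside the classes) and the chain pairs, and named pathway genes were the called ones and the 2 of smallest p in each list. Depth was 31.3 to 46.4 M (mega) counts. No libraries were duplicates.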

Additional observations from a re-analysis of the deposited data

Results flagged for a closer look

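In 7 of 100 groups of 4 or 5 values (the named genes, class sums and chain ratios, each within 1 label), 1 library lay far from the others of its group for the size of that group, where chance alone gives about 1 in 20. Of the libraries labelled WT, WT 1 was high for Col3a1, at 18796 CPM against a next value of 14993 CPM, and for Col6a2, at 3597 CPM against 3039 CPM. WT 2 was low for Col6a3, at 1865 CPM against 2767 CPM, and for Col28a1, at 5.24 CPM against 9.78 CPM. Of the libraries labelled Il17ra-/-, replicate 1 was high for Col12a1, at 678 CPM against 439.6 CPM. Replicate 4 was high for Il17ra itself, at 284 CPM against 199.6 CPM. Replicate 5 was high for Col7a1, at 22.4 CPM against 3.06 CPM, in the library in which the keratin genes Krt5 and Krt14 were also highest.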

How the results depend on the processing

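Of 703 values of 37 named collagen and pathway genes under 19 alternatives, 659 kept their sign and their side of the threshold, 13 lost a call, 2 gained one (Bmp1 with DESeq2, Col4a3 without WT 2 and Il17ra-/- 1 together) and 29, in 12 genes, changed sign. Collagen genes were called in 0 cases under 18 alternatives, leave-one-out included, and in 2 without WT 2 and Il17ra-/- 1 together. That last choice lowers the fold changes of many collagen genes by construction. Pathway calls, 2 in the reported fit, were 1 with library totals, 0 without those 2 libraries together, and 0 to 2 when 1 library was left out. Over all genes 491 calls became 1026 with DESeq2, and 275 (without Il17ra-/- 3) to 567 (without WT 2) when 1 library was left out, with 323 without Il17ra-/- 1. The cause of these shifts was not tested. The correlation of deviations between libraries of the 2 labels was -0.02 to 0.06 for equal replicate numbers and -0.04 to 0.04 for unequal ones. Values this near 0 do not settle whether the numbers pair the libraries. With the number as a replicate block over numbers 1 to 4 the calls were 366 over all genes, 0 collagen genes and 2 pathway genes.

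Of the genes that changed sign, Col7a1 had the largest difference in the reported fit (1.603), and it turned below 0 without Il17ra-/- 5. Without WT 2 and Il17ra-/- 1 together the log2 fold change was -0.0504 for Col16a1, -0.191 for Col12a1, -0.0577 for Col6a1, -0.0100 for Col6a2, -0.0574 for Col1a1, -0.0651 for Col15a1, -0.141 for Col8a1 and -0.0491 for Col28a1. With the replicate block it was -0.00153 for Col16a1 and -0.0444 for Col1a1. Col1a2 was 0.0473 with library totals and 0.00527 with no filter on low counts. When 1 library was left out, the values ranged over -0.0959 to 0.0711 for Col1a2, -0.0202 to 0.177 for Col16a1, -0.0230 to 0.486 for Col12a1, -0.0139 to 0.0918 for Col6a1, -0.0509 to 0.126 for Col1a1, -0.00113 to 0.175 for Col15a1, -0.0710 to 0.447 for Col8a1, -0.291 to 0.0666 for Col8a2, -0.258 to 0.155 for Col4a5 and -0.104 to 1.90 for Col7a1. Depth did not limit the abundant genes, and for the low ones, such as Col9a1 and Col6a4, a 2-fold difference was not resolved.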
